A study of Homo sapiens with 2 samples.

Results

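The 37 genes described here encode the 26 integrin subunits named below, the leukocyte adhesion receptors ICAM1, ICAM2, ICAM3, VCAM1, PECAM1, SELP, SELE, SELPLG and CD44, and the integrin activators FERMT3 and TLN1. They were chosen by name from 20037 protein-coding genes, with earlier results of these data known. A peak was assigned to a gene when its midpoint lay inside the gene's span or within 10 kb of it, and again within 50 kb. Chromatin immunoprecipitation followed by sequencing had been carried out in NB4 cells, an established line from acute promyelocytic leukemia with the PML-RARA fusion, and with no treatment other than fixation named in the labels. There were 2 libraries, 1 with the antibody ab21061 and 1 with sc8558, both labelled as antibodies to GFI1 and stated in the design to recognise different parts of it. The protocol text names antibodies to the PML/RARα fusion instead, and GFI2 stands in the title given to the sc8558 sample. The antibody labels were followed. With 1 library per antibody there was no replicate and no test, and the values describe these libraries. The lists held 7687 and 7562 peaks, which formed 4853 shared regions, that is, overlapping peaks of both lists joined. Each peak carries the authors' own score from the peak caller, higher for stronger evidence, with a lowest deposited value of 50.01 in both lists. Scores rank peaks within their own list and their levels are not comparable between lists. The sequencing depth is unknown.

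Integrins are membrane receptors made of an α and a β subunit, which bind matrix proteins or receptors on other cells. On leukocytes, selectins and their ligands slow the cell on the vessel wall, after which activated integrins bind immunoglobulin-family receptors and hold it there. Talin and kindlins switch integrins on by binding the tails of the β subunits inside the cell. GFI1 is a zinc-finger repressor of transcription with a role in granulocyte development, and ITGAM, the αM subunit CD11b, is widely used as a marker of granulocytic and monocytic maturation in this cell line and others.

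Peaks of both antibodies overlapped the promoters of 2 integrin genes, ITGAV and ITGB8. ITGAV encodes the αV subunit of the receptors for vitronectin and latent TGF-β, and ITGB8 a β subunit that pairs with αV. These were the only ones of the members' 33 annotated promoters, each 250 bases before to 50 after a start, that a peak overlapped. The share of all 34943 promoters that a peak overlapped was not counted, so 2 of 33 cannot be called high or low. Only the sc8558 peak of ITGAV reached across the start itself, and the other peaks ended upstream of it. Annotated promoters from RefSeq on the GRCh38.p14 build were available for 25 of the 37 genes. The 250 bases before a start are printed for ITGAV and ITGB8, and also for ITGAM. The plan covered only promoters that a peak overlapped, and ITGAM was added although its nearest peaks lay further upstream, outside the promoter. Capitals mark every AATC, the core of the GFI1 site, and every GGAA, the core bound by ETS factors, on either strand (GATT and TTCC on the strand shown). ITGAV lies at chr2:186589806-186590055, ITGB8 at chr7:20330650-20330899 and ITGAM at chr16:31259725-31259974, all on the plus strand.
ITGAV: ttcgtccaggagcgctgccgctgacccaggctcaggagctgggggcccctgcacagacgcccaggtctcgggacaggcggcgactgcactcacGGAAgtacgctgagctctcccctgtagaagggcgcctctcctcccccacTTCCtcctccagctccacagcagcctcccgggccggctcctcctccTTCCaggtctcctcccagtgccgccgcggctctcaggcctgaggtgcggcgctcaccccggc
ITGB8: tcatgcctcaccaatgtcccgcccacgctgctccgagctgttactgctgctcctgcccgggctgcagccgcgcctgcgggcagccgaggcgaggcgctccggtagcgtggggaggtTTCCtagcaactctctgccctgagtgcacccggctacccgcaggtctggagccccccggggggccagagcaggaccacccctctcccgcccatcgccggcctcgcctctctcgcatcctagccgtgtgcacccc
ITGAM: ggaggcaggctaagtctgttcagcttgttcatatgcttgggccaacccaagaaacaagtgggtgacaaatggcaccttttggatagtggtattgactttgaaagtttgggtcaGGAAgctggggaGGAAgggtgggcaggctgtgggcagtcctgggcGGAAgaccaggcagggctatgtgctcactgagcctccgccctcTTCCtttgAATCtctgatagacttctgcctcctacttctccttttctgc

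In the promoters of ITGAV and ITGB8 AATC had 0 matches, and it had 1 in that of ITGAM. GGAA had 4 matches in the 300 bases of ITGAV, 1 in ITGB8 and 6 in ITGAM. GC content over the printed bases was 70.8, 71.2 and 53.2%, beside a median of 58% over 34943 promoters. Of the members' 33 promoters 18 held AATC (54.5%), against 69% of all promoters of this length. The longer forms AAATCAC and AATCNNNGC, both of which contain AATC, were in 0 and 3 of the 33, against 3.15 and 11% of all. GGAA was in 30 (95.4% of all promoters), the RUNX core TGTGGT in 4 (13.1%) and the AP-1 site TGANTCA in 2 (7.72%). Both strands were searched throughout. A match describes the letters of these windows and no more, and the sequence under peaks away from starts was not analysed here.

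Of the 37 genes 17 had an ab21061 peak within 10 kb, where 17.4% of all protein-coding genes did. The same number had an sc8558 peak, against 17.8%. A shared region was found within 10 kb of 15 genes (40.5%), beside 12.8% of all protein-coding genes. Within 50 kb there were 21 genes with ab21061, 21 with sc8558 and 19 (51.4%) with a shared region, where the shares over all genes were 31.7, 32.4 and 24.3%. The median gene of the list had 0 shared regions within 10 kb, as over all genes, and 1 within 50 kb against 0. Shared regions within 10 kb were found for 10 of the 26 integrin subunits and 5 of the 11 other members.

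Gene length bears on these counts, because a long gene has a wide window, and the members were longer than most (median span 42.9 kb against 24.1 kb). The plot of genes by span gives the same counts within classes of length. Under 20 kb, 3 of 10 members had a shared region within 10 kb, beside 6.1% of all genes of that class. From 20 to 50 kb there were 2 of 9 beside 11.9%, from 50 to 100 kb 7 of 11 beside 17.0%, and at 100 kb or more 3 of 7 beside 28.2%. Within 50 kb the counts were 3 of 10 (18.3% of all genes in the class), 3 of 9 (24.8%), 8 of 11 (29.2%) and 5 of 7 (35.5%). The member share was above that of all genes in each class, by the widest margin from 50 to 100 kb, though every class holds few members. Per length of window, the members had 18 shared regions in 3.25 Mb (5.54 per Mb) within 10 kb, and all protein-coding genes 1.88 per Mb.

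**Figure D1:**
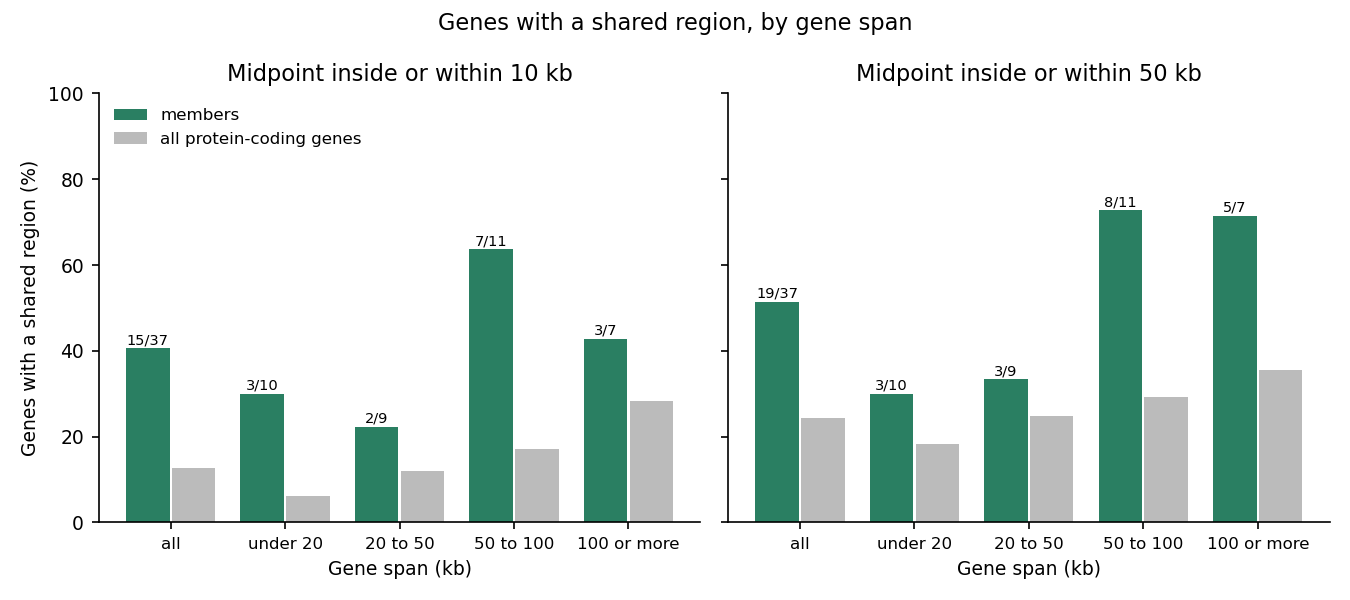
Percentage of genes with at least 1 shared region (y axis) by class of gene span in kb (x axis), for the members (green, with counts over the bars) and all protein-coding genes (grey), in windows of 10 kb (left) and 50 kb (right). The green bar is the higher of each pair, with 7 of 11 members against 17.0% of all genes from 50 to 100 kb in the narrower window.

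The counts fell when low-scoring peaks were left out. When peaks with a score of 100 or more alone were taken from both lists, 4 members had a shared region within 10 kb, ITGA6, ITGA11, ICAM3 and PECAM1, which is 10.8% of the list beside 6.29% of all genes. Within 50 kb there were 7 (18.9% beside 12.6%). Inside the gene span alone, 9 members (24.3%) had a shared region, beside 8.35% of all genes. These shares, with the score limit or the span alone, were not split by class of gene length.

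Among the β2 integrins, which are restricted to leukocytes, 3 of 5 genes had a shared region within 10 kb, beside 12.8% of all protein-coding genes. In each of the 3 the region lay outside the gene. This count, like those of the groups below, rests on few genes and was not split by class of gene span. ITGAM had a shared region on chromosome 16 from 31253388 to 31254201, 6.18 kb upstream of its annotated start, scoring 157.3 with ab21061 and 93.51 with sc8558. No other protein-coding gene lay nearer. ITGAL, the αL subunit of LFA-1, had one 3.17 kb beyond its lower-coordinate end, from 30469134 to 30470010 on chromosome 16, with scores of 80.62 and 71.85. ITGB2, the β2 subunit that all of these α chains need to reach the cell surface, had one on chromosome 21 from 44880644 to 44881411. It lay 4.93 kb beyond the lower-coordinate end of ITGB2 and scored 61.4 and 94.09. An ab21061 peak of 66.12 stood 2.50 kb beyond the other end of ITGB2, and the nearest sc8558 peak was 49.5 kb from it. ITGAX and ITGAD, which follow ITGAM along chromosome 16, had none within 50 kb. For both, the nearest peaks were those of ITGAM, 101 kb from ITGAX and about 140 kb from ITGAD (139.5 kb with either antibody).

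The β1 subunit and its α partners bind collagens, laminins, fibronectin and VCAM1. Of these 12 genes 4 had shared regions within 10 kb, 7 regions in all, where 12.8% of all protein-coding genes had any. ITGA6, a laminin receptor subunit, held 3 of them, more than any other member. Within ITGA6, 10.3 kb downstream of the nearest annotated start, a region on chromosome 2 from 172437451 to 172438402 scored 237.92 and 209.04. Beyond the far end of the gene came regions at 3.89 kb (144.99 and 133.36) and at 7.42 kb, the latter from 172513068 to 172514698 with scores of 278.07 and 214.61. All of these regions scored over 100 in both lists, and a further sc8558 peak inside the gene, without overlap, scored 54.47.

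ITGA1 and ITGA11, both collagen-binding subunits, held regions deep inside their spans. In ITGA1 they lay 17.9 and 46.9 kb downstream of the start on chromosome 5, with scores of 63.7 and 84.34 for the first and 141.73 and 97.59 for the second. A further sc8558 peak, scoring 64.77, stood 1.08 kb from the second region's ab21061 peak. In ITGA11 the region lay 41.5 kb downstream, on chromosome 15 from 68390190 to 68391163, with scores of 154.69 and 125.77. ITGA4, the α4 subunit of the VCAM1 receptor, had one 8.76 kb downstream of its start, from 181465707 to 181466581 on chromosome 2 (114.33 and 93.64). Another, at the edge of the wider window, lay 49.9 kb from ITGA4 and scored 107.62 and 110.26, and no protein-coding gene was nearer to it.

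The highest scores around any member lay outside the 10 kb window. A region on chromosome 12 from 54358151 to 54360045 scored 535.13 and 384.05, ranks 186 and 340 of the lists, at 36.2 kb from ITGA5, the α5 subunit of the fibronectin receptor. Its midpoint was inside another gene, GPR84, which encodes a receptor for medium-chain fatty acids. The next highest in the ab21061 list, though below the region in PECAM1 in the sc8558 list, lay 27.8 kb upstream of the nearest start of ITGB1, on chromosome 10 from 32985344 to 32986646, with scores of 342.24 and 254.3, and here ITGB1 was the nearest protein-coding gene. ITGA2, the α2 collagen receptor subunit, had a weak region at 14.4 kb (50.42 and 73.67), inside MOCS2. ITGA9 spanned 371 kb and held 1 peak of each antibody, scores 82.17 and 63.58, separated by 269 kb and so not shared. ITGA3, ITGA7, ITGA8 and ITGA10 had no peak within 50 kb.

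**Figure D2:**
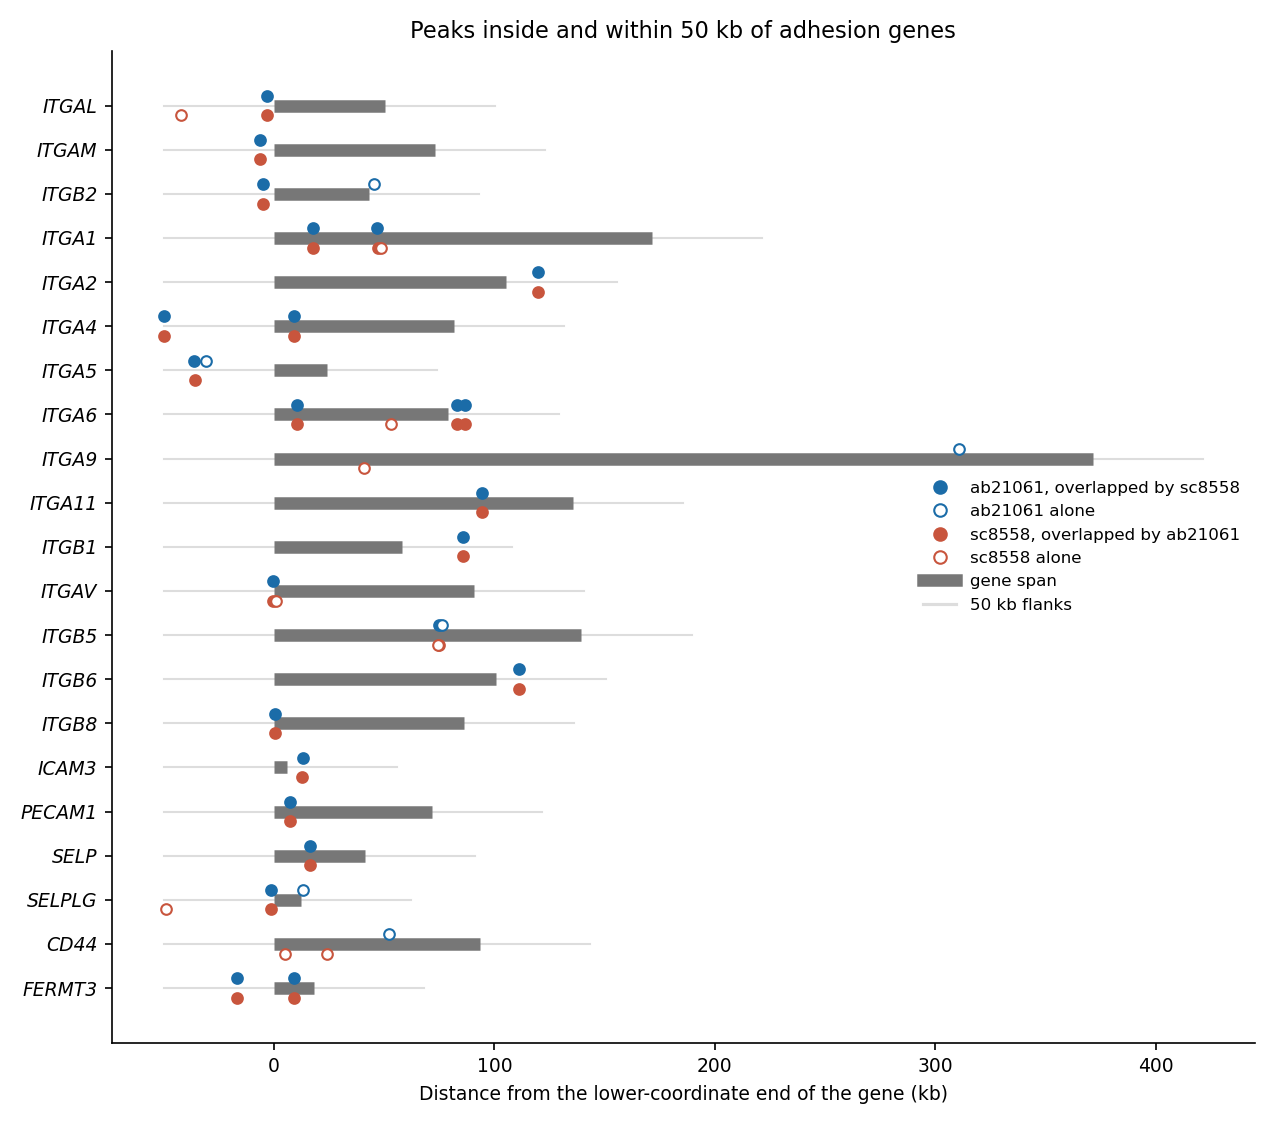
Peaks around the 21 members with any peak within 50 kb, by distance in kb from the lower-coordinate end of the gene (x axis). Dark bars are gene spans and pale lines the 50 kb on either side; blue points are ab21061 peaks and red points sc8558 peaks, filled when a peak of the other list overlaps. Filled pairs stand together for most genes, whereas ITGA9 and CD44 hold open points alone.

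In the αV group and among the remaining β subunits, 3 of 7 genes had a shared region within 10 kb, beside 12.8% of all protein-coding genes. At ITGAV the region from 186588956 to 186590357 on chromosome 2 scored 85.14 with ab21061 and 113.01 with sc8558. Its midpoint was 0.400 kb upstream of the first annotated start, and it also reached the promoter of the noncoding gene LOC124906105. An sc8558 peak of 52.15 without overlap followed 1.09 kb downstream of that start. At ITGB8 the region from 20329599 to 20330746 on chromosome 7 scored 82.67 and 94.8, with its midpoint 0.728 kb upstream of the annotated start and inside the wider span that the gene table gives.

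ITGB5, another αV partner, showed a row of neighbouring peaks inside the gene. The shared region, on chromosome 3 from 124836525 to 124837424, lay 50.4 kb downstream of the nearest annotated start and scored 188.08 and 78.16. Beside it lay an ab21061 peak of 157.18, 166 bp from the sc8558 peak, and an sc8558 peak of 60.26, 95 bp from the ab21061 peak. The ab21061 peak of 157.18 was the highest-scoring peak without overlap around any member. ITGB6, an epithelial β subunit, had a region 10.5 kb upstream of its start (69.59 and 90.65), just outside the 10 kb window. ITGA2B and ITGB3, which form the platelet fibrinogen receptor, and ITGB4, the laminin receptor partner of α6, had none within 50 kb. Nor did ITGAE and ITGB7, which together form the receptor for E-cadherin on lymphocytes of the gut lining, and the peak nearest to ITGAE was 1090 kb away with either antibody.

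Among the immunoglobulin-family receptors, PECAM1 and ICAM3 had shared regions and ICAM1, ICAM2 and VCAM1 had none within 50 kb. PECAM1, an adhesion receptor of leukocytes, platelets and vessel lining, held the highest-scoring region inside any member, on chromosome 17 from 64326148 to 64327496. Its scores of 304.77 and 291.01 ranked 520 and 535, so that 6.76 and 7.07% of the peaks of either list scored as high. The region near ICAM3, a ligand of LFA-1 on resting leukocytes, lay 6.85 kb upstream on chromosome 19 from 10343878 to 10349070 and scored 252.18 and 181.58. At 5193 bp it was the widest around the members, and TYK2, a kinase gene of cytokine signalling, lay nearer to it at 4.06 kb. The same peaks were the nearest to ICAM1, at 60.4 and 59.7 kb.

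Of the selectins, SELP, the P-selectin of platelets and vessel lining, had a shared region inside the gene, 25.1 kb downstream of its start on chromosome 1 from 169604674 to 169605446 (92.92 and 138.99). SELE had none within 50 kb. SELPLG, which encodes the P-selectin ligand PSGL-1 of leukocytes, had a region 1.29 kb beyond its lower-coordinate end, from 108620086 to 108621116 on chromosome 12, with scores of 107.51 and 61.96. An ab21061 peak of 68.85 stood 0.989 kb beyond the other end of SELPLG, with the nearest sc8558 peak 13.2 kb away. A further sc8558 peak without overlap, scoring 59.04, lay 49.2 kb beyond the lower-coordinate end of SELPLG and nearer to ISCU, at 3.35 kb. CD44, the hyaluronan receptor, held 1 ab21061 peak (57.63) and 2 sc8558 peaks (50.42 and 53.93) within its span. All were near the lowest deposited score and none overlapped, the closest pair of peaks from different antibodies being 27.4 kb apart.

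FERMT3, the kindlin of blood cells, had a shared region inside the gene on chromosome 11 from 64214748 to 64215482, 7.41 kb downstream of the nearest annotated start. Its scores of 67.03 and 56.15 ranked 5088 and 6354. A second lay 16.6 kb before FERMT3, inside STIP1 (61.05 and 72.96). TLN1, the talin gene, had its nearest ab21061 peak at 113 kb and its nearest sc8558 peak at 110.1 kb.

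Overlap between the antibodies was counted for the peaks near the members. Within 10 kb, 18 of 23 ab21061 peaks (78.3%, exact Clopper-Pearson 95% interval 56.3 to 92.5, counting error only) and 18 of 25 sc8558 peaks (72.0%, 50.6 to 87.9) were overlapped. The shares over all peaks were 63.7 and 65.0%, and both lay within the intervals. Of the member peaks that scored 100 or more, 11 of 12 with ab21061 and 8 of 8 with sc8558 were overlapped by a peak of any score, where 91.6 and 93.5% of all such peaks were. Median scores of the member peaks were 107.5 and 93.5, beside 82.4 and 81.7 over all peaks. Among the peaks without overlap within 50 kb, 6 of ab21061 and 9 of sc8558, none of sc8558 scored above 78.79, the value of a peak 42.2 kb from ITGAL and 0.498 kb from DCTPP1. Across the 24 shared regions within 50 kb the scores had a Spearman rho of 0.758, beside 0.721 over all 4853. The points come from the same 2 libraries and are not independent.

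**Figure D3:**
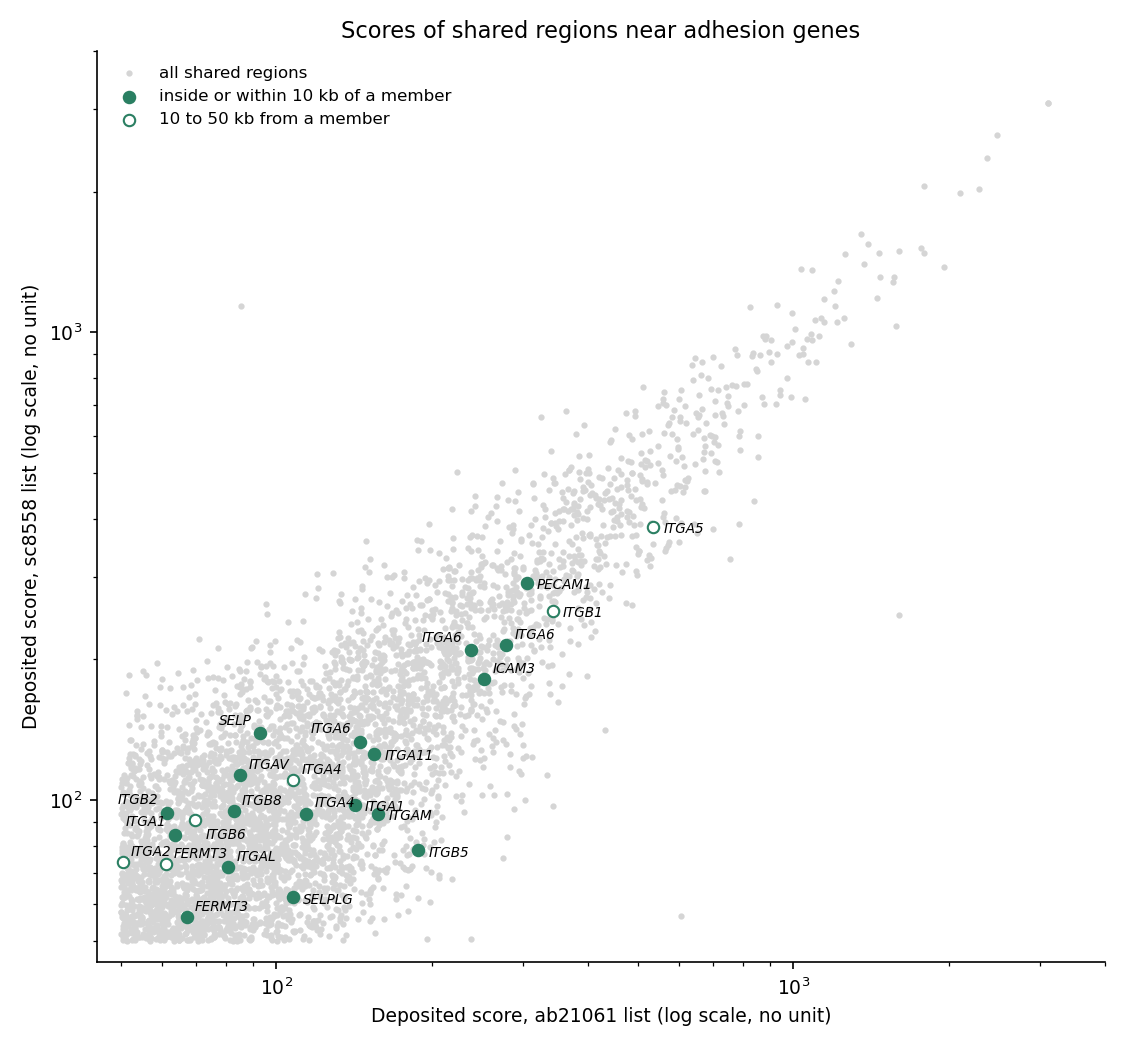
Deposited score of each shared region in the ab21061 list (x axis) and the sc8558 list (y axis), both on log scales without unit. Grey points are all 4853 shared regions, filled green points those inside or within 10 kb of a member and open green points those at 10 to 50 kb; the regions near ITGA5, ITGB1 and PECAM1 stand highest and most others lie between 50 and 160 on the x axis.

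Most of the 18 shared regions within 10 kb lay away from annotated starts of the members. The places of all shared regions were not counted in this way, so this cannot be called particular to the members. Inside the span lay 10 of the 18, and 8 lay outside it. For 17 no protein-coding gene was nearer than the member, the exception being the region near ICAM3. A start was annotated for the member of 14, of which 4 lay upstream of the nearest start and 10 downstream, and 2 had their midpoint within 1 kb of it. Of the 6 regions at 10 to 50 kb, 3 lay nearer to, or inside, another gene.

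Other adhesion genes, 68 in a list of receptors, adaptors, glycosylation enzymes and matrix ligands, had shared regions within 10 kb in 16 cases (23.5%, beside 12.8% of all protein-coding genes). The 23.5% was not split by class of gene span. Most of the 16 genes spanned 100 kb or more, a class in which 28.2% of all protein-coding genes had a shared region within 10 kb. Most of the 68 genes were shorter, so the 28.2% is no background for the whole list. The glycosylation enzymes that build selectin ligands had 5 of 8. FUT7, the fucosyltransferase that completes sialyl Lewis x on PSGL-1, had a region over most of the gene, on chromosome 9 from 137030257 to 137033163, with scores of 861.15 and 894.49. These exceed every score around the 37 members. GCNT1, which builds the branched core of the same sugar chains, held a region scoring 450.09 and 397.44, and FUT4, a related fucosyltransferase, 3 regions, the highest with 350.6 and 379.4. Adaptors of integrin signalling had shared regions within 10 kb in 11 of 35 cases (31.4%). Most of these 11 genes spanned 100 kb or more, but the 31.4% covers adaptors of every length and was not split by class. It is therefore not comparable with the 28.2%. FYB1, an adaptor of leukocyte integrin activation, scored 381.78 and 301.78, SKAP2, its binding partner, 290.12 and 299.15, and a region near CRK 266.61 and 214.67. The last lay 6.99 kb from CRK and 0.966 kb from MYO1C. None of 17 further receptors and none of 8 matrix ligands had a shared region within 10 kb. Of the receptors, CD47 and ALCAM each had an ab21061 peak and no sc8558 peak in that window. Within 50 kb, 4 of the 17 receptors (23.5%) had a shared region, beside 24.3% of all protein-coding genes, and 0 of the matrix ligands did.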

How the data were processed

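The deposited files list the peaks of 1 library each, with a score per peak. Bowtie2 2.2.9, MACS 1.4.2 and the hg38 build are named per the submitters' processing notes. The sources used here name no options, read filters or control for calling, and a control shared by both lists could place peaks in both. Sequencing depth is unknown.

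Gene spans came from RefSeq on GRCh38.p14 (20037 protein-coding genes on chromosomes 1 to 22, X and Y) and starts from its promoter table. Exons and introns were not separated. Peaks overlapping by 1 bp were joined into shared regions, assigned by midpoint. Members and lists were chosen with earlier results of these data known. Every member was to be named: those with peaks within 10 kb with their peaks, those with peaks only at 10 to 50 kb with the highest, the rest by name, and the 6 other adhesion genes with the highest lower score of a shared region. One item of the other adhesion genes is not reported here. Counting was tested on simulated data. Alternatives were a score of 100 or more, any overlap with the window, the gene span alone, 50% overlap, midpoints within 500 bp and lists of equal length. Calculations ran in Python 3.11.15 with pandas 2.3.3, numpy 2.4.6 and scipy 1.17.1, and figures in matplotlib 3.10.9.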

Additional observations from a re-analysis of the deposited data

How the results depend on the processing

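Of 47 recomputed values, 32 stayed within 1.5 times the reported count, or within its interval for a share. Taking only peaks that scored at least 100 left 9 members with an ab21061 peak, 6 with an sc8558 peak and 4 with a shared region within 10 kb, and 11, 9 and 7 within 50 kb. Over all protein-coding genes the shares were then 8.41, 8.33 and 6.29% within 10 kb and 16.3, 16.5 and 12.6% within 50 kb. The peaks within 10 kb then numbered 12 and 8, with 6 shared regions, 9 other adhesion genes had a shared region, and 50% of the members' ab21061 peaks were overlapped, since the other list was shortened too. The gene span alone left 11 members with an ab21061 peak (11.6% of all genes), 9 with a shared region (8.35%), 13 ab21061 peaks and 10 shared regions. Fewer peaks or a narrower window enter both by construction. Counting only peaks to which no other protein-coding gene lay nearer, chosen after seeing the data, gave 16, 16 and 14 members within 10 kb and 16 with a shared region within 50 kb. The shares over all genes were 15.0, 15.1 and 10.9%, and 13.2%. No paired analysis was possible because each antibody had 1 library, and none could be left out. As the depth is unknown, the lack of a peak in 1 list cannot be read as absence of signal.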
